A study of Mus musculus with 6 samples.

Results

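The genes described here are those of adult haemoglobin and of red cell haem synthesis, namely the alpha-globin genes Hba-a1 and Hba-a2, the beta-globin genes Hbb-bs and Hbb-bt, and Alas2. They were picked from the table by gene symbol, in a rule that names no measured value but was written with earlier results of these data known, and all 5 were found among the 43346 rows of the deposited table and passed the low-count filter. RNA was sequenced from the brain of 3 adult male mice labelled Kdm5c deficient and 3 labelled wild type, which the series describes as littermates. Every mouse came from a C57BL/6 mother heterozygous for the deficiency and a wild-type 129 father. The autosomes of both genotypes thus carry an equal mixture of C57BL/6 and 129 backgrounds. The X chromosome of these males, where Kdm5c and Alas2 lie, came from the mother alone. The sources used here do not give the deficient allele, the brain region, whether the animals were perfused, or the beta-globin haplotype of the 129 father. Kdm5c is an X-linked gene for a histone H3 lysine 4 demethylase. Its own reads numbered 1572, 1561 and 1713 in deficient mice 1, 2 and 3, against 1916, 1692 and 1921 in wild-type mice 1, 2 and 3. The targeted gene thus differed by -0.16 ± 0.07 (SE) on the log2 scale, which did not pass edgeR's test (adjusted p = 0.196), and as the allele is not described this level cannot check the labels. Libraries held 20221675 to 24555412 counts. In summed levels of 10 cerebellar genes deficient mouse 2 stood apart, at 1041 CPM (reads of a gene as a share of the scaled library total) against 2315 to 3583 CPM in the other mice, and values without this mouse are given where they change a call.

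Haemoglobin is a tetramer of alpha and beta chains, each holding a haem group that binds oxygen. Its genes are switched on in red cell precursors by factors such as GATA1 and KLF1, and young red cells still carry globin RNA after they have lost their nucleus, so globin RNA in a tissue can come from blood in its vessels. Low globin expression has also been described in neurons and other brain cells. Alas2 makes the red cell form of 5-aminolevulinate synthase, the enzyme that starts haem synthesis, whereas other cells use the form made by Alas1.

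Each globin pair consists of near-identical copies, which bears on every value for a single gene. On GRCm38, Hba-a1 lies on chromosome 11 at 32283511 to 32284465 and Hba-a2 at 32296489 to 32297298, both on the plus strand. Hbb-bs lies on chromosome 7 at 103826534 to 103828096 and Hbb-bt at 103812524 to 103813996, both on the minus strand. The coding sequences of Hba-a1 and Hba-a2, of 429 bases each, differ at 1 base, C381T, counted from the first base of the start codon with Hba-a1 first. Those of Hbb-bs and Hbb-bt, of 444 bases each, also differ at 1 base, C417T, with Hbb-bs first. Neither difference alters the encoded protein, of 142 residues for alpha and 147 for beta. Alpha and beta chains themselves are 41.6% identical in an alignment. The stretches around the differing base, in GENCODE M21 transcripts, show how little separates the copies within the coding part. Capitals mark the differing base, and the stretches cover coding bases 354 to 408 (alpha) and 390 to 444 (beta).
Hba-a1: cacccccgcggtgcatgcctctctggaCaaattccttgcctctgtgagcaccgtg
Hba-a2: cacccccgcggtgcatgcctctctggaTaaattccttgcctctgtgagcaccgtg
Hbb-bs: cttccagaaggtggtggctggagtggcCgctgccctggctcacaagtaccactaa
Hbb-bt: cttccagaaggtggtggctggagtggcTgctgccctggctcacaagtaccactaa

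Of all windows of 50 bases in the longest transcript, 67.5% in Hba-a1 and 86.9% in Hba-a2 also occurred in the other copy, and 65.8% in Hbb-bs and 58.3% in Hbb-bt. With windows of 100 bases these shares were 56.5%, 74.5%, 62.6% and 54.8%. Such windows were found in no transcript of any other gene. The copies therefore differ mainly outside the coding part, and the sources used here do not say how the authors' counting treated reads that match both copies. Counts of a single copy are uncertain to that extent, and each comparison below is also given with the pair summed. Alas2, on chromosome X at 150547375 to 150570638 (plus strand), has no such copy, but its exons overlap those of the antisense neighbour Apex2. Strand use in the counting is not stated, so reads of either gene in the overlap cannot be told apart, and 13.8% of its windows of 50 bases lie there or in Mir3620.

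The promoters of the pairs differ more than their coding parts in beta and not at all in alpha. Over 247 aligned bases before the RefSeq starts (GRCm38.p6), Hba-a1 and Hba-a2 were identical, while Hbb-bs and Hbb-bt shared 71.7% of 244 aligned bases. The 250 bases before the RefSeq start are shown for 1 alpha and both beta genes, since the beta promoters differ and the alpha promoters do not. The gene positions given above are those of GENCODE M21, whose genes begin earlier. Part of each window shown therefore lies inside those gene bounds. Capitals mark, on either strand, GATA-type motifs (AGATAA or the variant AGATAG, with TGATAA or the variant TGATAG), the letters CACCC, the letters CCAAT and the letters TATAA, and matches may overlap.
Hba-a1 (chr11:32283422-32283671, plus strand): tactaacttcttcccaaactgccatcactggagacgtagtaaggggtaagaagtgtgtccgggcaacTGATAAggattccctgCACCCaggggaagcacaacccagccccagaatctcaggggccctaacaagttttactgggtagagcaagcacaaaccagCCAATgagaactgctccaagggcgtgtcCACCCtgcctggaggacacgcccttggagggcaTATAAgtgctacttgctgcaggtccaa
Hbb-bs (chr7:103827929-103828178, minus strand): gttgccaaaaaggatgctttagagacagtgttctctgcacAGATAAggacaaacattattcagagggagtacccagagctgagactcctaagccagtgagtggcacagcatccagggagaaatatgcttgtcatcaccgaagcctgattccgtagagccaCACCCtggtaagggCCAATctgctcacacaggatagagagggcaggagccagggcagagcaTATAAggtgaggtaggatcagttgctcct
Hbb-bt (chr7:103813924-103814173, minus strand): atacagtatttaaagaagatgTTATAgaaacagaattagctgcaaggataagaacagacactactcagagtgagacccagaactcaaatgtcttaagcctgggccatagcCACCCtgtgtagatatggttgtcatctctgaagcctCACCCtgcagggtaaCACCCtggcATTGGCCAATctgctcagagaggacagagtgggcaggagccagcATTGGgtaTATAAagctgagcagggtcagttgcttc

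A TATAA match lay 27 to 30 bases before the start in all 4 globin genes. The GATA-type motifs had 1 match each in Hba-a1, Hba-a2, Hbb-bs and Alas2 and none in this window of Hbb-bt. CACCC matched 3 times in Hbb-bt and once in Hbb-bs. Among 32851 promoters of this length the GATA-type motifs occurred in 26.5%, CACCC in 52.0%, CCAAT in 33.8% and TATAA in 22.8%. A match describes letters and not a bound site.

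Of the 5 genes 1, Hbb-bt, passed the threshold, and it was lower in deficient mice. In all, 2.48% of the 15127 tested genes passed in that direction and 4.93% in either, by edgeR's quasi-likelihood test at an adjusted p under 0.05. An unadjusted p under 0.05 was reached by 3 of the 5 genes, against 24.9% of those tested. Lower levels without overlap were found in 2 of the 5 and in 16.0% of those tested. The median log2 fold change (deficient over wild type) was -0.16 over the 5 genes and 0.0012 over all tested genes. Globin transcripts are short, and the 335 tested genes with a longest transcript of up to 800 bases had a median of 0.04.

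The 4 globin genes together took 1333, 1740 and 1403 reads in deficient mice 1, 2 and 3, against 1903, 1617 and 1654 in wild-type mice 1, 2 and 3. Divided by the unscaled library total, on the scale of CPM, these were 63.2, 71.96 and 63.9 against 77.5, 79.96 and 72.05. Deficient mouse 2 and wild-type mouse 3 were thus nearly level, and the other deficient mice lay below all wild-type mice. In bulk tissue, fewer cells of a type and less RNA per cell cannot be told apart.

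Hbb-bt, the less abundant beta gene, had 98, 121 and 115 reads in the deficient mice against 209, 152 and 162 in the wild-type mice, here and below in the order of mice 1, 2 and 3. Scaled, these were 4.61, 5.08 and 5.29 CPM against 8.46, 7.44 and 7.08 CPM. No deficient mouse reached the lowest wild-type level. Expression fell by 34.8% (95% interval -45.7% to -21.8%), or by 0.62 ± 0.12 (SE) on the log2 scale (edgeR adjusted p = 0.0266). The call ended without deficient mouse 3 (adjusted p = 0.0604) and without wild-type mouse 1, 2 or 3 (0.111, 0.111 and 0.0698 by edgeR), at log2 fold changes of -0.67 to -0.54. The authors' deposited table gives Hbb-bt, once its sign is reversed, a log2 value of -0.45 ± 0.13 (SE) and an unadjusted p of 0.000397. A DESeq2 fit of the same counts here gave -0.62 ± 0.17 (SE) with an unadjusted p of 0.000384. How the deposited log2 value was estimated is not given, so its smaller size is not read as a smaller fall.

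Hbb-bs, the main beta gene, had 923, 1172 and 922 reads in deficient against 1252, 1066 and 1096 in wild-type mice. The levels were 43.4, 49.2 and 42.4 CPM against 50.7, 52.2 and 47.9 CPM, and deficient mouse 2 exceeded wild-type mouse 3. On the log2 scale the difference was -0.16 ± 0.07 (SE; edgeR adjusted p = 0.194). The beta pair summed went from 57.9 ± 2.52 to 50.0 ± 3.70 CPM (SD, n = 3 each), without overlap. The log2 difference of -0.21 ± 0.06 (SE) did not pass (edgeR adjusted p = 0.0942), and passed without deficient mouse 2 (-0.27, adjusted p = 0.0297).

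Of the alpha genes, Hba-a2 had 121, 166 and 138 reads in deficient against 187, 185 and 179 in wild-type mice, or 5.69, 6.97 and 6.35 against 7.57, 9.05 and 7.83 CPM. The genotypes did not overlap, but the log2 difference of -0.36 ± 0.12 (SE) did not pass (edgeR adjusted p = 0.114). Hba-a1 had 191, 281 and 228 reads against 255, 214 and 217, or 8.98, 11.8 and 10.5 against 10.3, 10.5 and 9.49 CPM. The deficient mice spanned the whole wild-type range. The log2 difference was 0.05 ± 0.11 (SE; edgeR adjusted p = 0.829), with a 95% interval of the change from -13.6% to 23.8%, and it was -0.05 without deficient mouse 2 and -0.0069 with offsets for GC content and length. The alpha pair summed had 16.8 ± 2.05 CPM in deficient and 18.2 ± 1.14 CPM in wild-type mice (SD, n = 3 each), or -0.12 ± 0.10 (SE) on the log2 scale (edgeR adjusted p = 0.487).

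Alas2 had few reads, 14, 27 and 19 in deficient against 23, 17 and 22 in wild-type mice. These were 0.658, 1.13 and 0.875 CPM against 0.931, 0.832 and 0.962 CPM. The deficient mice lay on both sides of the wild-type range. The log2 difference was -0.03 ± 0.26 (SE; edgeR adjusted p = 0.967), with a wide 95% interval of the change, from -34.4% to 47.2%. Without deficient mouse 1 it was 0.15, and without wild-type mouse 3 it was 0.02.

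**Figure D1:**
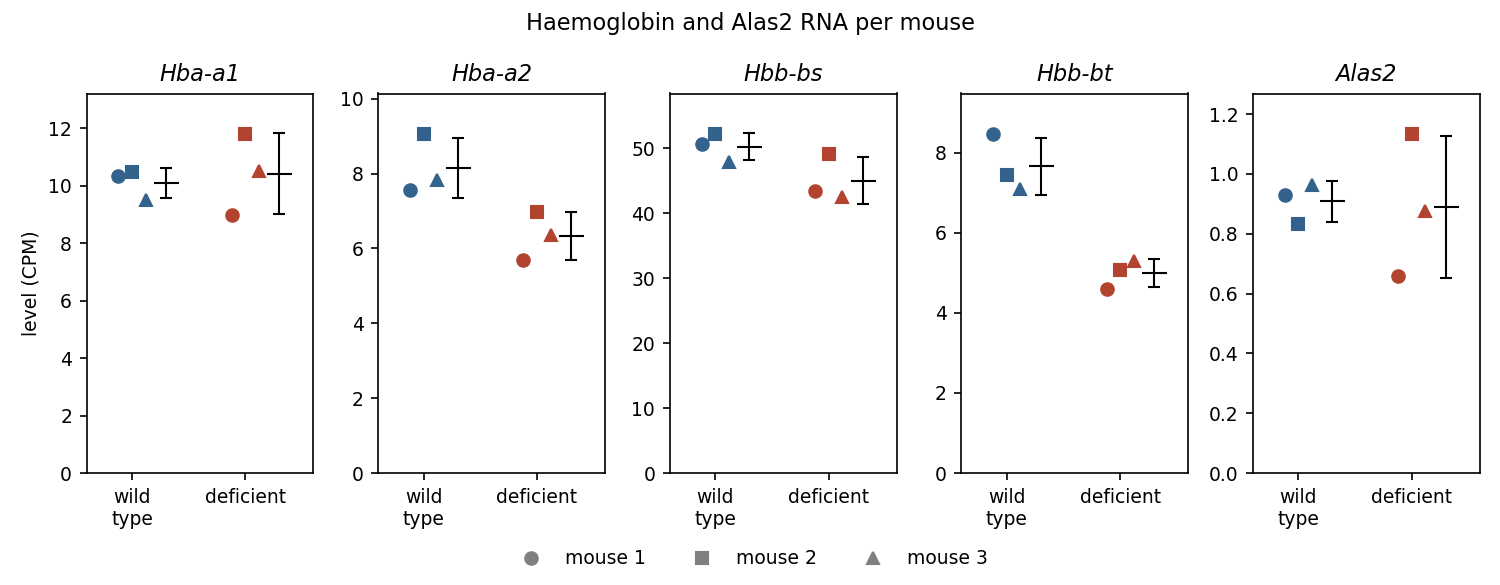
Level in CPM of each haemoglobin gene and of Alas2 (vertical axes, each starting at 0) in wild-type (blue) and deficient (red) mice; symbols mark the mouse number and bars the mean ± SD of 3 mice. Hba-a2 and Hbb-bt show no overlap between genotypes, whereas the deficient mice span the wild-type range in Hba-a1 and Alas2.

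The division of reads between copies does not depend on library size. Hba-a2 took 38.8%, 37.1% and 37.7% of alpha reads in deficient against 42.3%, 46.4% and 45.2% in wild-type mice. Hbb-bt took 9.60%, 9.36% and 11.1% of beta reads in deficient against 14.3%, 12.5% and 12.9% in wild-type mice. Both shares were lower in each deficient mouse than in any wild-type mouse, with mean differences of -6.75 and -3.21 percentage points. A two-sided exact permutation test gave p = 0.1 for each, the smallest value that 3 against 3 mice allow, and 0.15 after Benjamini-Hochberg adjustment over 3 shares. The third, alpha reads among all globin reads, was 23.4% to 26.1% in deficient and 23.2% to 24.7% in wild-type mice and overlapped (exact permutation p = 0.3, adjusted 0.3). For single mice the 95% exact binomial (Clopper-Pearson) intervals, which cover counting error only, can overlap, as for Hbb-bt in deficient mouse 3 (9.24% to 13.2%) and wild-type mouse 2 (10.7% to 14.5%). How reads shared by both copies were assigned bears on these shares, and its part was not tested.

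**Figure D2:**
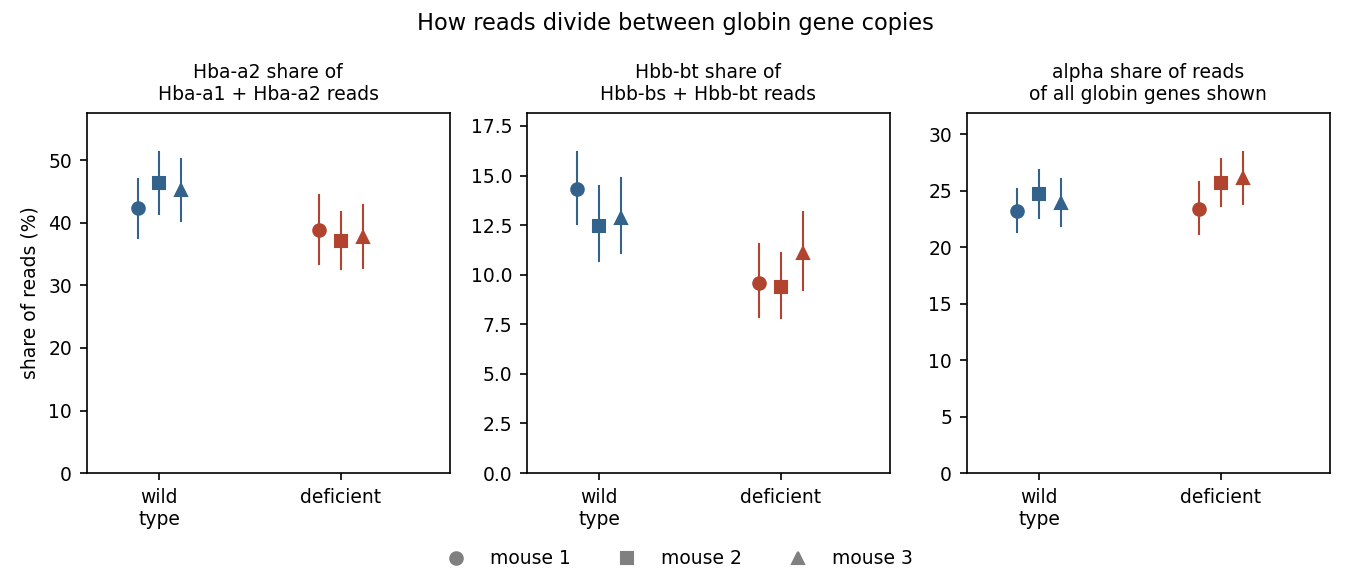
Share of reads in percent (vertical axes, starting at 0) that fell to Hba-a2 among alpha genes, to Hbb-bt among beta genes and to alpha among all haemoglobin genes shown, per mouse; vertical lines are 95% exact binomial intervals. The first 2 shares are lower in every deficient mouse than in any wild-type mouse, and the third overlaps.

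Per kilobase of exon, Hbb-bs stood far above the others, at 62.0 CPM on average over the 6 mice. Hba-a1 followed at 12.6, Hba-a2 at 10.9 and Hbb-bt at 9.0 CPM per kilobase, and Alas2 came last at 0.374. In wild-type mice Hba-a1 (11.7 to 12.9), Hba-a2 (11.3 to 13.6) and Hbb-bt (10.1 to 12.03) overlapped in this level. In deficient mice they were apart, at 11.1 to 14.5, 8.53 to 10.4 and 6.55 to 7.53 CPM per kilobase. Such overlap depends on the length used. For Hba-a1, Hba-a2 and Hbb-bt the exons spanned 812, 667 and 703 bases, but the longest transcripts 699, 554 and 703. On the longest transcript the averages over the 6 mice were 14.7, 13.1 and 9.0 CPM per kilobase. Overlap between the genes is therefore not read as a trait of a genotype, and the assignment of shared reads also bears on it. By level per length of the longest transcript, Hbb-bs ranked above 95.6% of tested genes, the other globin genes above 57.3% to 70.2% and Alas2 above 8.38%.

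Embryonic and minor globin genes were almost without reads. Hba-x, Hbb-bh1 and Hbb-bh2 had 0 in every mouse, Hbb-y had 2 in total, Hbq1a 34 and Hbq1b 12. The alpha pseudogene Hba-ps4, on chromosome 17, had 2, 1 and 0 reads in deficient against 7, 4 and 7 in wild-type mice, too few to be tested. Of 11 other globin genes listed 9 were counted and 3 tested, and none passed. Neuroglobin (Ngb), the globin of neurons, had 13.6 ± 2.66 CPM in deficient and 9.70 ± 0.126 CPM in wild-type mice (SD, n = 3 each; log2 difference 0.50, edgeR adjusted p = 0.0721). For myoglobin (Mb) the log2 difference was 0.58 ± 0.24 (SE; edgeR adjusted p = 0.179).

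Most listed red cell markers had too few reads to be tested. Of 18 listed membrane and late erythroid genes 16 were counted and 3 could be tested, and none passed; without deficient mouse 1, 2 passed and without deficient mouse 2, 1 passed. The band 3 anion exchanger gene Slc4a1 had 7, 2 and 5 reads in deficient against 15, 13 and 10 in wild-type mice. Other genes of the list with few reads ran the other way, with 2, 4 and 4 against 0, 0 and 1 for Car1, a carbonic anhydrase gene, and 3, 0 and 8 against 0 in each wild-type mouse for Tspo2. Hemgn had 0 or 1 read in any mouse and Rhag 0; these 5 genes were named after their values were seen. The tested genes included the ankyrin gene Ank1, which brain also expresses, at 142 ± 49.8 against 223 ± 12.2 CPM (SD, n = 3 each; adjusted p = 0.111 by edgeR). Its lowest value, 88.3 CPM, was in deficient mouse 2, which was also lowest in cerebellar genes. For Ermap, an erythroblast membrane gene, the log2 difference was -0.58 (edgeR adjusted p = 0.213). Of 11 erythroid regulators 7 were tested and none passed. Gata1 had 1 read in all, Klf1 2 to 7 per mouse, and Gata1 and Klf1 could not be tested. Bcl11a, a repressor of fetal globin also known from neurons, differed by 0.19 on the log2 scale (edgeR adjusted p = 0.314), and Lmo2, a partner of GATA1, by 0.36 (adjusted p = 0.346).

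In the list for haem synthesis 1 of 14 tested genes fell, and in that for haem breakdown and iron 1 of 12. Among all tested genes 2.48% passed in that direction, and 1 call per list is not read as a result about the list. The 14 listed genes of haem synthesis summed to 462 to 473 CPM in deficient and 475 to 482 CPM in wild-type mice, without overlap. Within this sum the largest drops in mean were in Slc25a37, at 26.9 CPM in deficient against 34.3 CPM in wild-type mice, and Ppox. Ppox had 18.2 against 23.0 CPM (edgeR adjusted p = 0.142), so the shift of the sum does not describe the list as a whole. All 14 were tested, 7 of them with a negative log2 fold change. By the threshold 1 was lower and none higher, at a median log2 fold change of 0.0065. The lower gene was Slc25a37, mitoferrin 1, which carries iron into mitochondria for haem synthesis and is abundant in red cell precursors. It had 25.5, 25.01 and 30.1 CPM in deficient against 35.6, 34.9 and 32.4 CPM in wild-type mice, without overlap (log2 difference -0.35 ± 0.08, SE; edgeR adjusted p = 0.0449). The call ended with GC and length offsets and without deficient mouse 2 or any 1 of the wild-type mice (adjusted p from 0.0513 to 0.174), and antisense genes overlap its exons. Alas1, the general form of the enzyme, differed by -0.0061 ± 0.04 (SE) on the log2 scale, and Fech, the enzyme of the last step, by -0.06 ± 0.05 (SE).

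Of 16 genes of haem breakdown, haemoglobin clearance and iron 12 were tested, with 1 lower, none higher and a median log2 fold change of -0.09. Fold changes were negative in 9 of the 12, against 49.7% of all tested genes. The 14 counted genes summed to 1447 to 1605 CPM in deficient and 1650 to 1750 CPM in wild-type mice, without overlap. Most of this sum was Fth1, at 1145 ± 77.9 against 1234 ± 48.1 CPM (SD, n = 3 each, edgeR adjusted p = 0.288). Tfrc, the transferrin receptor through which cells take up iron, had 123, 133 and 114 CPM in deficient against 179, 187 and 161 CPM in wild-type mice. The genotypes did not overlap, and Tfrc fell by 0.51 ± 0.07 (SE) on the log2 scale (edgeR adjusted p = 0.0144). The call ended without wild-type mouse 1 or 2 (adjusted p = 0.0768 and 0.0789) and held in the other fits that left out a mouse. Tfrc is expressed by many brain cells as well as red cell precursors. The haem oxygenase genes Hmox1 and Hmox2, which break haem down, differed by -0.07 and 0.10 on the log2 scale, and Cd163, the macrophage receptor for haemoglobin, by 0.32 (edgeR adjusted p = 0.241).

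**Figure D3:**
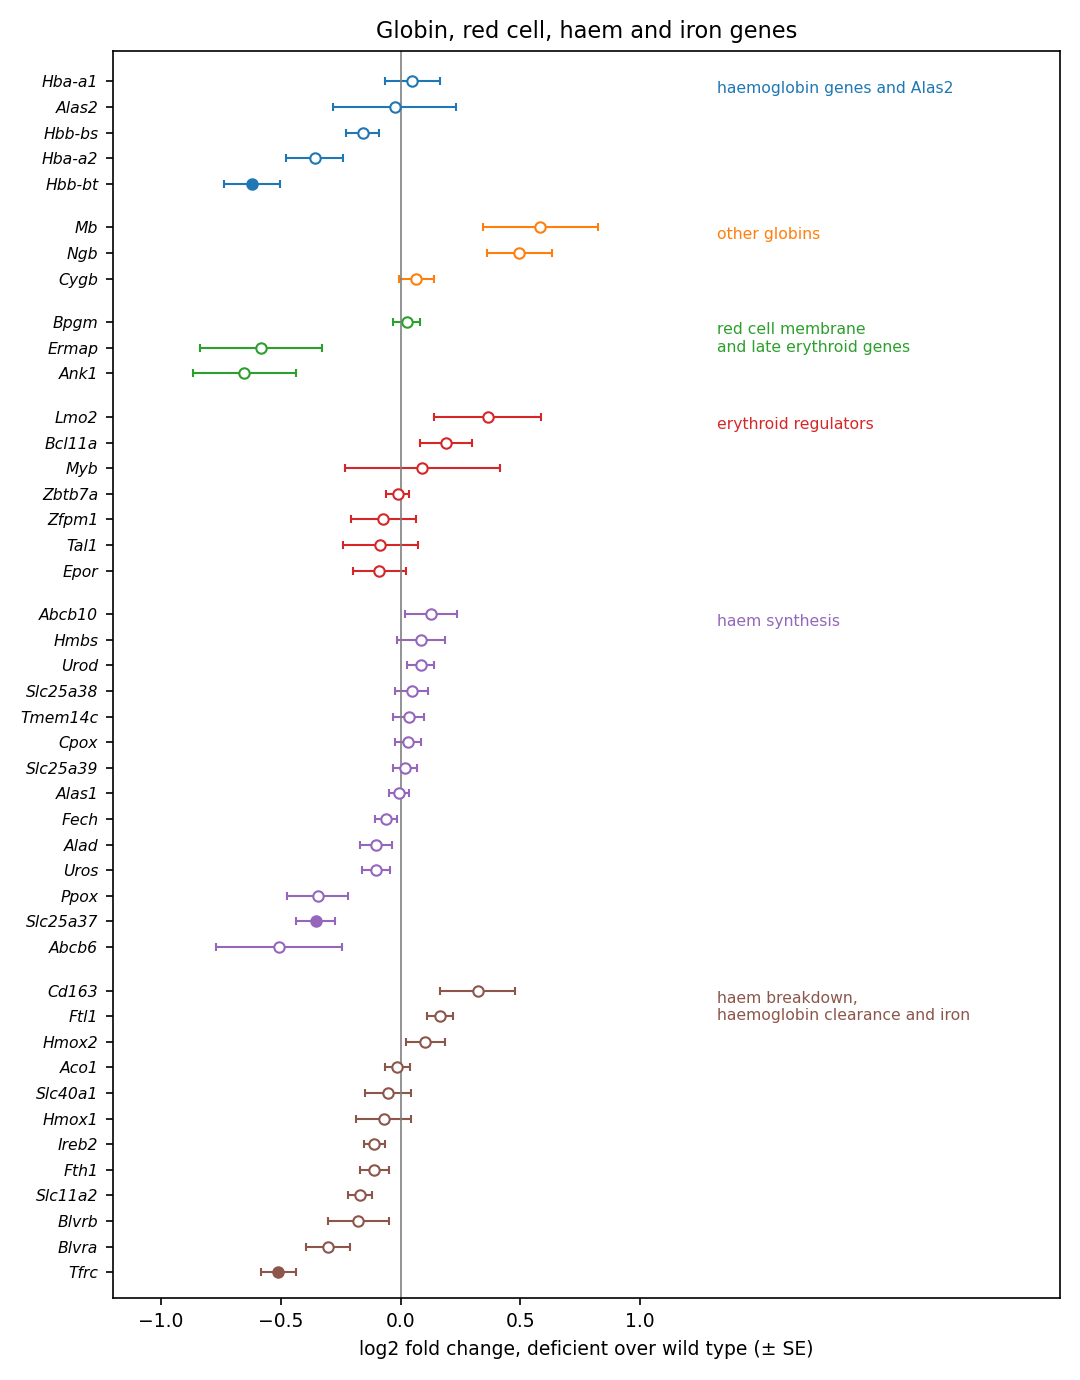
Log2 fold change, deficient over wild type, with its SE (horizontal axis) for every tested gene of the globin, red cell, haem and iron lists, grouped by colour; filled points have an adjusted p under 0.05. Hbb-bt, Slc25a37 and Tfrc are filled, and all 3 lie below 0.

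No tested gene of the white blood cell lists passed the threshold. Neutrophil genes summed to 7.61 to 9.30 CPM in deficient and 7.39 to 9.80 CPM in wild-type mice, with 3 of 13 tested and none past the threshold (Csf3r 0.22, Mmp9 -0.18 on the log2 scale). Lymphocyte genes summed to 15.01 to 28.2 against 14.8 to 26.7 CPM, with 4 of 15 tested and none called (Trac 0.99, edgeR adjusted p = 0.115, and Cd79a 0.32), and Ms4a1 had 0 reads. Monocyte genes summed to 5.498 to 7.99 against 5.43 to 6.11 CPM, with 3 of 7 tested and none called (F13a1 0.46, adjusted p = 0.162, and Itgal -0.19). Ly6c2, a defining monocyte gene, had at most 1 read in any mouse. The range of deficient mice overlapped that of wild-type mice in each of these lists. Their part in the globin result was not tested.

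The 11 listed platelet genes summed to 12.03 to 13.7 CPM in deficient and 11.3 to 13.1 CPM in wild-type mice. Pf4, a platelet granule gene, had 12 to 14 reads in deficient and 13 to 18 in wild-type mice, Ppbp 0 to 2 in any mouse and Gp6 none. Of the 11 genes 6 were tested, 3 of them with a negative log2 fold change, and calls among them are not reported here. The overlap of the sums therefore does not describe single platelet genes.

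All 19 endothelial genes were tested and none passed (1 without deficient mouse 2), at a median log2 fold change of 0.07. They summed to 507 to 567 CPM in deficient and 489 to 498 CPM in wild-type mice, without overlap. Of the 19, 4 had a negative log2 fold change, down to -0.25 for Ly6a. Esam, an endothelial adhesion gene, had 18.8 ± 0.501 against 15.03 ± 1.35 CPM (SD, n = 3 each; edgeR adjusted p = 0.0608), and Slc2a1, the glucose transporter of brain vessels, differed by 0.28 on the log2 scale (adjusted p = 0.0795). Border macrophage genes summed to 7.93 to 11.97 against 8.51 to 10.1 CPM, with none of 5 tested genes called (Siglec1 0.91, adjusted p = 0.0963; Cbr2 0.37). Choroid plexus genes, from another vessel-rich tissue, summed to 1077 to 1521 CPM in deficient and 1443 to 1636 CPM in wild-type mice, with none of 7 called, or 3 without deficient mouse 1 (Enpp2 -0.37, adjusted p = 0.0965; Ttr -0.24). Cerebellar genes were lower in each deficient mouse, at a median log2 fold change of -0.96 with none of 10 called, or 3 without deficient mouse 2 and 2 without deficient mouse 1 (Itpr1 -0.55, Zic1 -0.77). Neuronal genes summed to 7146 to 8037 against 7017 to 7332 CPM, with none of 8 called, or 3 without deficient mouse 1 (Syt1 0.29, Nefm -0.23). Deficient mouse 2, lowest in cerebellar genes, had the most globin reads for its library total among the deficient mice. The part of tissue makeup in the globin result was not tested.

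**Figure D4:**
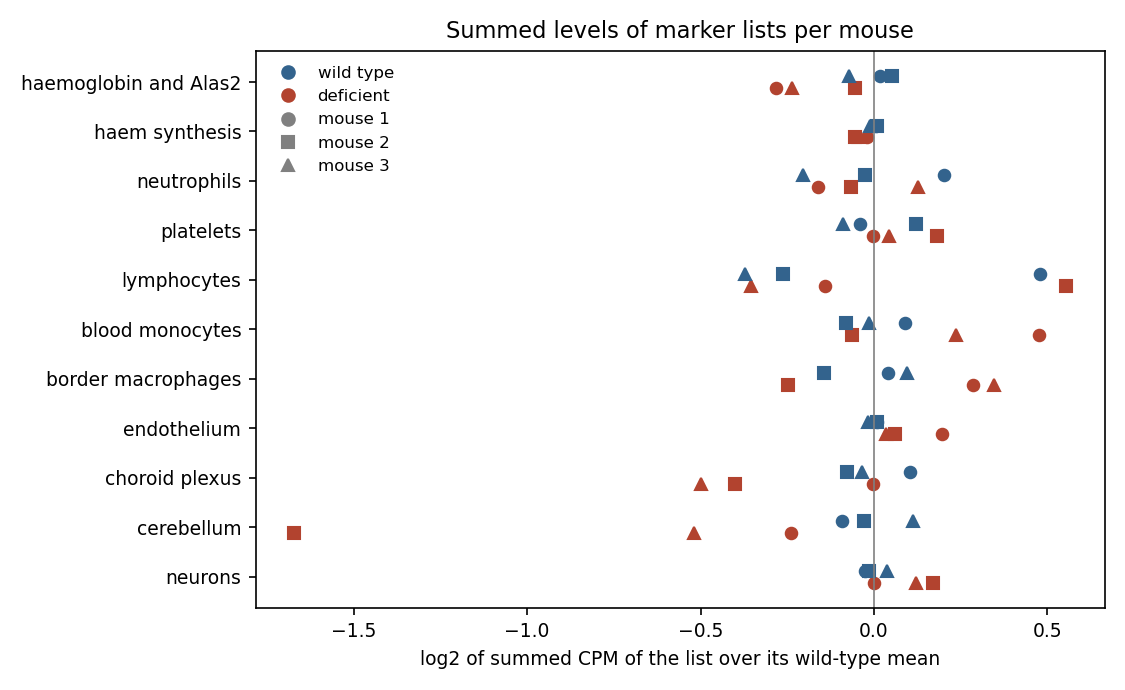
Summed CPM of each gene list per mouse as log2 over the wild-type mean of that list (horizontal axis), with wild-type mice in blue and deficient mice in red. The haemoglobin and Alas2 genes of deficient mice 1 and 3 lie to the left of all wild-type mice. In every deficient mouse the haem synthesis list lies slightly to the left of all wild-type mice and the endothelial list to the right. Neutrophil, lymphocyte and platelet lists overlap between genotypes, and the cerebellar list of deficient mouse 2 lies far to the left.

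Over the 6 mice, the genes closest to the mean standardised profile of the 5 genes were in none of the gene lists described above. By Pearson correlation of log2 CPM they were Pts, Thoc1, Zdhhc8, Slc27a2, Gm3985, mt-Co2, Hid1, 1700003M07Rik, Seh1l and Chid1, with r from 0.997 down to 0.966. In all 92 of 15122 other tested genes had r above 0.9. With the genotype means taken away the closest included Nuf2, Srsf2, 5330416C01Rik, Smarca1, Mrps18b, Cntn5, Spata13, 1110032F04Rik and St8sia3, 352 genes had r above 0.9, and no gene was in both sets of 10. These values describe the libraries and carry no test.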

How the data were processed

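Per the file headers, the authors deposited raw counts per gene symbol and mouse, beside a mean signal across mice, a log2 fold change with standard error, a score (the Wald statistic) and the unadjusted p-value; the submitters' processing notes name DESeq2 and GRCm38. Aligner, counting program, strand use and read length: not given in the sources used here. The deposited fold change has wild type as numerator; its sign was reversed and it served for comparison only.

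Software was R 4.3.3, edgeR 4.0.16, limma 3.58.1 and DESeq2 1.42.0. edgeR's expression filter (minimum count 10, minimum total 15) left 15127 genes. Scaling used the TMM method. The quasi-likelihood test of edgeR compared the genotypes over all these genes, without covariates, and p-values were adjusted by Benjamini-Hochberg (threshold 0.05). SE came from the F statistic. CPM are counts divided by the scaled library total. Libraries held 20221675 to 24555412 counts. The log2 CPM for likeness used a prior count of 2. The test was tested on simulated data.

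The members and the gene lists were chosen with earlier results of these data known. The rule for named genes takes the members, each listed gene past the threshold or else the 2 with the smallest p of a list, and the 10 closest profiles; other genes were named after their values were seen. Of the listed genes, those not found by symbol, Hbb-b1 and Hbb-b2 among them, were not analysed here. Some genes that the naming rule takes are not reported here. Sequences came from GENCODE M21 and RefSeq tables, where all 5 members matched by symbol. Alternatives were other scalings, filters and tests, the replicate number as a block, GC and length offsets and leaving out each mouse; those for listed genes and shares were added after seeing the data.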

Additional observations from a re-analysis of the deposited data

How the results depend on the processing

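Hbb-bt was lower in all 16 alternatives. It passed in 9 of the 10 that kept all mice; the exception was the replicate block, at a log2 fold change of -0.62 with an adjusted p of 0.0946. Leaving out each mouse gave -0.67 to -0.54, with 2 of 6 calls. Hba-a2, Hbb-bs and the alpha pair summed were negative and not called in any alternative. The beta pair summed ranged from -0.27 to -0.18 with a mouse left out and passed once. Hba-a1 was -0.0069 with GC and length offsets and -0.05 to 0.15 with a mouse left out (-0.0506 without deficient mouse 2). Alas2 ranged from -0.25 to 0.15 with a mouse left out and was not tested at 5 CPM or more. The number of genes past the threshold was 746, against 1121 with no low-count filter, 1213 with DESeq2, 58 with the replicate block and 44 to 2098 with a mouse left out. The replicate block lowered the count of calls. Correlations across genes were -0.06, -0.06 and 0.14 between mice with the same number, and -0.11 to 0.16 between mice with different numbers. With 3 mice per genotype these values cannot decide whether the numbers mark pairs. The sample titles give only a number, so the main test used no block. The block also ended the call of Slc25a37 (adjusted p = 0.118). The cause of these shifts was not tested.

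Depth limits Alas2 most, with 14 to 27 reads per mouse, and shared sequence limits the split between copies.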
